A study of Mus musculus with 9 samples.

Results

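The genes described are 41 members of the NRF2 pathway and of glutathione and thioredoxin metabolism, taken by symbol from a table of 23420 gene symbols measured in mouse neural stem cells. All 41 symbols were in the table, and the rule uses the symbols alone. The RNA sequencing compared neural stem cells given 3 µM NAT, which the labels call a new small molecule, with cells given 3 µM P7C3-A20, a neuroprotective carbazole compound, and with cells given the DMSO vehicle, with 3 libraries per group. All 9 libraries came from wild type C57BL/6J mice aged 2 days, whose hippocampus was dissociated and whose stem cells were grown in culture and then moved to a drop-out medium lacking bFGF and EGF, which is meant to promote differentiation and which the DMSO cells received too. The comparisons asked which of these genes differed between each compound and the vehicle, and between the compounds at the same dose. The labels call the libraries biological replicates but do not say whether the 3 of a group came from separate cultures or animals. A p-value therefore reflects only how these libraries varied, and what that spread covers is not known.

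NRF2, the protein of Nfe2l2, is a transcription factor that KEAP1 holds in the cytoplasm and hands to a ubiquitin ligase for destruction. Oxidants and electrophiles modify cysteines of KEAP1, NRF2 then escapes, pairs with a small MAF protein and binds antioxidant response elements near genes for glutathione synthesis, conjugation of electrophiles, the thioredoxin system, NADPH supply and iron handling. NRF2 is thus controlled largely at the level of the protein, and in brain the pathway is known as strong in astrocytes and weak in neurons.

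Expression was given in TPM, a transcript abundance that divides reads by gene length, so levels of different genes can be set side by side. Every library summed to 1000000 TPM, and the reads recovered from the TPM steps came to 12028821 to 14109316 for NAT and DMSO, with 15885313 to 17217584 for P7C3-A20. The labelled cell type was checked by marker sums. The 8 neural stem cell and radial glia genes summed to 16127 to 16516 TPM in NAT cells, 15606 to 16138 TPM in P7C3-A20 cells and 16890 to 17337 TPM in DMSO cells, and the 10 astrocyte genes to 14290 to 14937 TPM, 13877 to 14918 TPM and 13455 to 14590 TPM in the same groups. Oligodendrocyte lineage genes reached 3412 to 4132 TPM over all libraries and neuronal genes 692 to 758 TPM, so markers of several neural types were expressed. Bulk sums cannot tell a mixture of cell types from markers shared by the same cells. Microglial genes summed to at most 2.14 TPM with Cx3cr1, C1qc, Trem2 and Ctss listed at 0, and 4 haemoglobin genes were also listed at 0.

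Most members were strongly expressed, at a median of 134 TPM over all libraries, against 26.4 TPM for all 13839 genes tested. Of the 41, 23 lay above 100 TPM and 4 above 1000 TPM. The 4 were the ferritin light and heavy chain genes Ftl1 and Fth1, which store iron, the thioredoxin gene Txn1, a disulphide reductase, and Prdx2, a cytosolic peroxiredoxin that removes peroxides. Sod1 and Prdx1 came next, followed by Gstm1, a glutathione transferase gene, at 414 ± 14.4 TPM in NAT cells, 355 ± 12.3 TPM in P7C3-A20 cells and 361 ± 10.5 TPM in DMSO cells (SD, n = 3 each). At the low end Pir, which codes for the iron-binding nuclear protein pirin, averaged 2.77 ± 0.713 TPM in NAT cells, 2.56 ± 0.530 TPM in P7C3-A20 cells and 3.42 ± 1.01 TPM in DMSO cells, on 16 to 32 reads a library. Osgin1, an oxidative stress-induced growth inhibitor gene, had 0.110 to 0.668 TPM on 1 to 7 reads and was the 1 member below the minimum of 1 TPM in at least 3 libraries, so 40 members were tested.

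**Figure D1:**
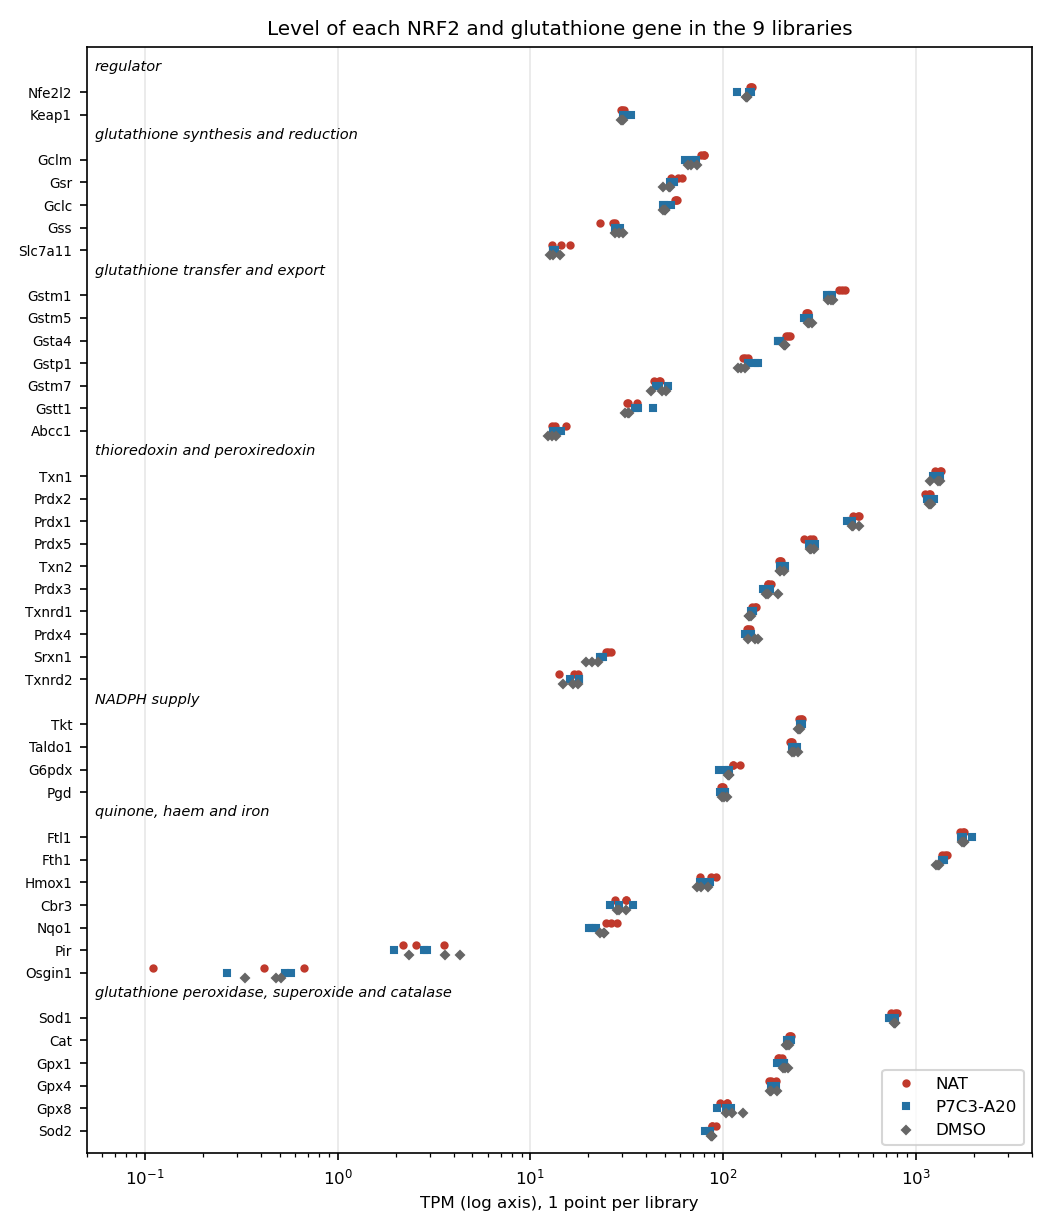
TPM on a log axis of each of the 41 members in every library, 1 point per library for NAT, P7C3-A20 and DMSO, with members grouped by role and ordered by level. Levels run from under 1 TPM for Osgin1 to over 1000 TPM for Ftl1, Fth1, Txn1 and Prdx2, and the 9 points of most genes lie close together.

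Members varied little between libraries of a group. Their median coefficient of variation was 3.10% with NAT, 3.88% with P7C3-A20 and 2.95% with DMSO, against 4.99%, 5.77% and 5.29% for all genes tested, which are less strongly expressed. Pir was the most variable of the 40 tested members in every group, at 20.7% to 29.5%.

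In none of the 3 comparisons did a member pass an adjusted p of 0.05 in limma over all 13839 genes. That is 0 of 40 for NAT against DMSO, where 0.0289% of all genes were called, 0 of 40 for P7C3-A20 against DMSO, where 0.0217% were called, and 0 of 40 for NAT against P7C3-A20, where 0% were called. At an unadjusted p under 0.05, 11 of 40 members differed between NAT and DMSO, 6 between P7C3-A20 and DMSO and 10 between NAT and P7C3-A20. Of all 13839 genes, 1615, 2194 and 2188 did so in the same order. When limma's voom was run on the recovered reads, an alternative chosen after the data were seen, it called 1 member in each comparison: Gstm1 in both comparisons of NAT, and Gstp1 in P7C3-A20 against DMSO. With 1 library left out, voom called 0 to 4 members for NAT against DMSO, the 4 being Fth1, Srxn1, Gstm1 and Gclc without P7C3-A20 replicate 3. In that fit 289 of all 13839 genes were called. It called 0 to 2 members for P7C3-A20 against DMSO, with Fth1 added without P7C3-A20 replicate 1, where 874 genes were called. Between the compounds it called 0 to 2 members. Gstp1 was added without P7C3-A20 replicate 1 (727 genes called) and G6pdx without P7C3-A20 replicate 2 (264 genes called). Every difference below is therefore a measured difference that missed the threshold on the TPM values, and it is given with its 95% interval or standard error.

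Against DMSO, 9 members were higher with NAT at an unadjusted p under 0.05 (22.5% of the 40, against 8.67% of all genes) and 2 were lower (5%, against 3% of all genes). The values of 12 members were higher in all 3 NAT libraries than in any DMSO library (30%, against 14.1% of all genes). They were Nfe2l2, Gclc, Gclm, Gsr, Gsta4, Gstm1, Txnrd1, Srxn1, G6pdx, Nqo1, Fth1 and Cat. Another 4 members, Gss, Gstm5, Taldo1 and Gpx1, were lower in all 3 NAT libraries (10%, against 4.89% of all genes). Over the whole list there was no common direction, since 23 of 40 log2 fold changes were above 0 (57.5%, against 63.5% of all genes). The median log2 fold change was 0.03 for the members and 0.03 for all genes.

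With P7C3-A20 against the same DMSO libraries, 4 members were higher at an unadjusted p under 0.05 (10%, against 10.7% of all genes) and 2 lower (5%, against 5.12%). Both shares were near those of all genes. The groups did not overlap for 7 members that were higher (17.5%, against 13.1% of all genes), namely Gsr, Gstp1, Gstt1, Txnrd1, Srxn1, Tkt and Fth1, nor for 4 that were lower (10%, against 7.49%), namely Gsta4, Prdx1, Nqo1 and Sod2. Log2 fold changes were above 0 in 20 of 40 members (50%, against 55.2% of all genes).

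Between the compounds, 8 members were higher with NAT than with P7C3-A20 at an unadjusted p under 0.05 (20%, against 9.92% of all genes) and 2 were lower (5%, against 5.89%). Groups did not overlap for 9 members that were higher with NAT (22.5%, against 13.3%), namely Gclc, Gclm, Gsta4, Gstm1, Srxn1, Prdx1, G6pdx, Nqo1 and Sod2. They did not overlap either for Gss, Gstp1 and Taldo1, the 3 that were lower (7.5%, against 8.35%). Log2 fold changes were above 0 in 24 of 40 members (60%, against 54% of all genes). The comparisons share libraries, both of the first 2 using the DMSO libraries, so their values are given side by side for each gene below.

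**Figure D2:**
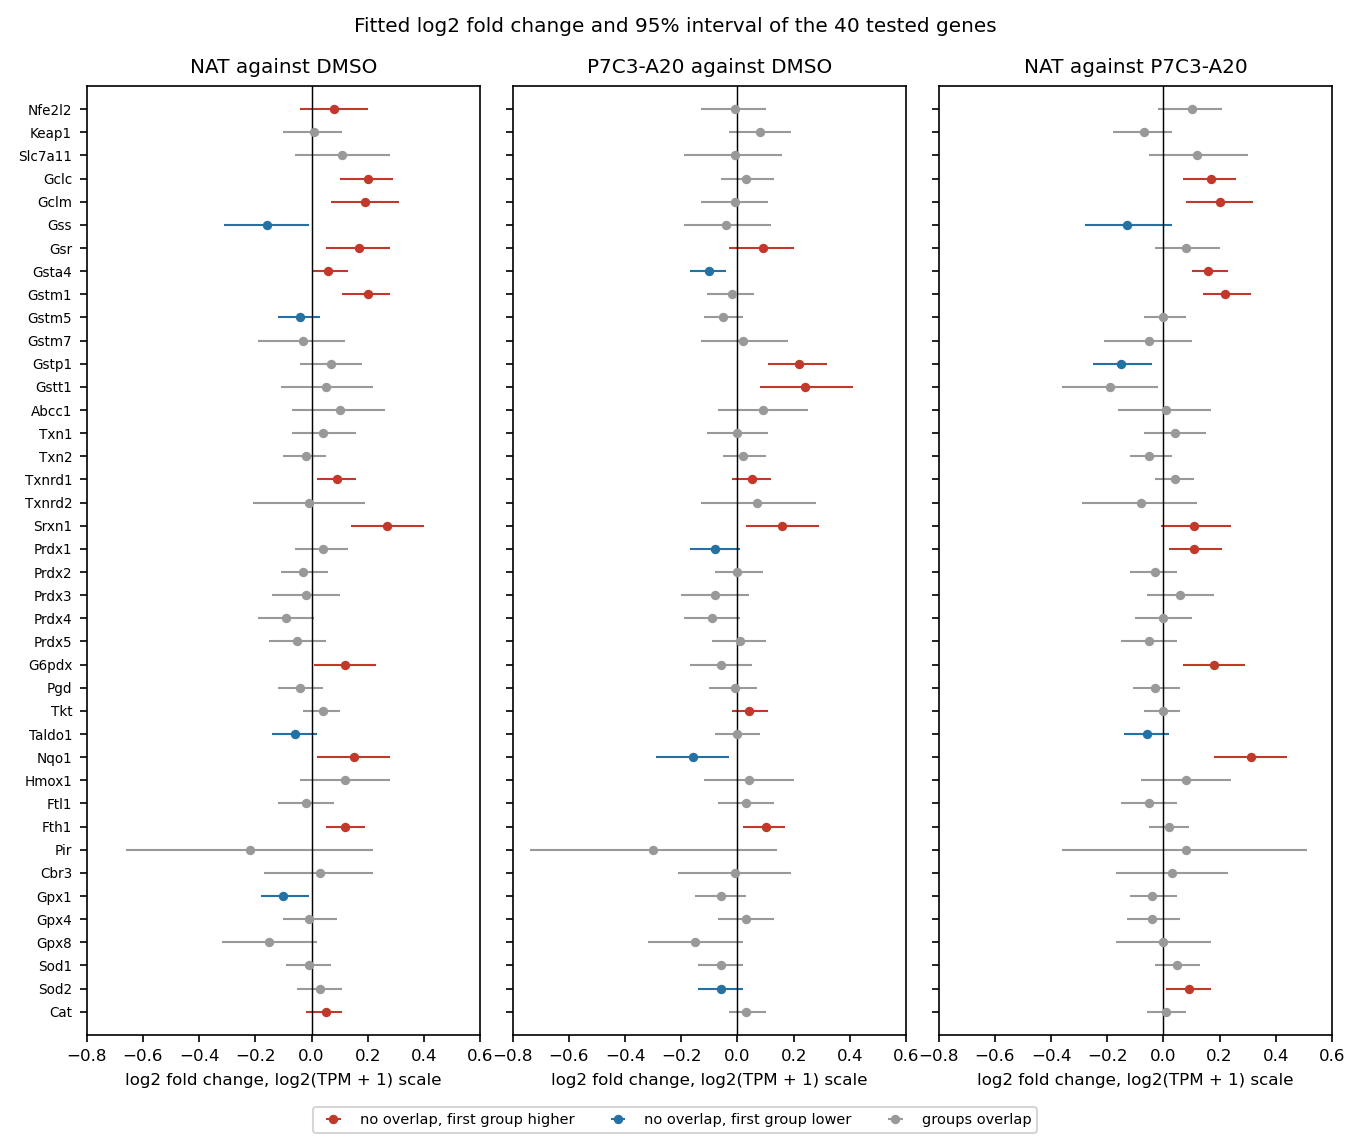
Fitted log2 fold change on the log2(TPM + 1) scale (points) with its 95% interval from limma (bars) for the 40 tested members, in 1 panel per comparison; red and blue mark members whose groups do not overlap, the first-named group being higher or lower, and grey those that overlap. All points lie within 0.31 of 0, the interval is widest for Pir, and no member passed the adjusted threshold.

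Sequences upstream of the members were read for the antioxidant response element, since that is the site NRF2 is known to bind. In RefSeq promoters of GRCm38.p6, 250 bases before to 50 after the gene start, 36 of the 41 members had an entry, with 45 promoters in all. The core TGACNNNGC, searched on both strands, occurred in 11 of the 45 promoters (24.4%), against 12.4% of 32851 mouse promoters. Another form, TGANTCAGC, fixes more letters but allows any letter where the core has its first C, so it is not a subset of the core. Searched the same way, it occurred in 5 of 45 promoters (11.1%), against 1.19%. The letters TGACTCAGC satisfy both motifs, so the sets overlap, and promoters of Pir, Prdx1 and Srxn1 held both. The sequences shown are those of members that the values below turn on, written 5′ to 3′ along the gene's strand, with the matching letters in capitals; a match on the opposite strand reads as the reverse complement.
Srxn1 (chr2:152105459-152105507, plus strand): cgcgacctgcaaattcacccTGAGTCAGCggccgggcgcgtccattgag
Prdx1 (chr4:116685446-116685494, plus strand): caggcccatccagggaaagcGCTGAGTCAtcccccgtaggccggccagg
Gstp1 (chr19:4037958-4038006, minus strand): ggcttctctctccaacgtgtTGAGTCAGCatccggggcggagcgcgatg
Gclm (chr3:122245403-122245451, plus strand): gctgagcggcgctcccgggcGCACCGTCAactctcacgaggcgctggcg
Txnrd1 (chr10:82859094-82859142, plus strand): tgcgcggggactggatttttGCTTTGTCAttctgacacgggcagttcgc
G6pdx (chrX:74428909-74428957, minus strand): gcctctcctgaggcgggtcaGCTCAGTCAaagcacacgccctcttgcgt
Nfe2l2 (chr2:75704875-75704913, minus strand): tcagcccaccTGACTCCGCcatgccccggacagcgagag
The Srxn1, Prdx1 and Gstp1 windows hold TGANTCAGC, the Prdx1 window and the other 4 hold TGACNNNGC, and the matches of Prdx1, Gclm, Txnrd1 and G6pdx are on the opposite strand. A match describes the letters and not a bound site, and no match in this window, as for Nqo1 and Gstm1, says nothing about elements farther away.

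The regulators themselves differed little. Nfe2l2 had 139.9, 138 and 141 TPM in NAT libraries, 139, 136 and 118 TPM in P7C3-A20 libraries and 132, 131 and 133 TPM in DMSO libraries. All NAT libraries were above all DMSO libraries by a small margin, while P7C3-A20 replicate 3 stood apart below the other 8. The log2 fold change of Nfe2l2 was 0.08 ± 0.05 for NAT against DMSO (SE; adjusted p = 0.567), -0.01 ± 0.05 for P7C3-A20 against DMSO (adjusted p = 0.930) and 0.10 ± 0.05 for NAT against P7C3-A20 (adjusted p = 0.405). Without P7C3-A20 replicate 3, the value for P7C3-A20 against DMSO was 0.06, with the opposite sign (adjusted p = 0.433), and that for NAT against P7C3-A20 was 0.02 (adjusted p = 0.845). With each library's trend with GC content removed, NAT was 0.05 above DMSO and 0.06 above P7C3-A20.

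Keap1, the repressor, had 30.0, 30.7 and 29.6 TPM in NAT cells, 30.3, 31.5 and 33.3 TPM in P7C3-A20 cells and 29.8, 29.6 and 30.4 TPM in DMSO cells, and all groups overlapped. Its log2 fold change was 0.01 ± 0.05 for NAT against DMSO (95% interval -0.10 to 0.11), 0.08 ± 0.05 for P7C3-A20 against DMSO (-0.03 to 0.19) and -0.07 ± 0.05 for NAT against P7C3-A20 (-0.18 to 0.03). With the GC trend removed, the first value was -0.02, the second -0.01 and the third -0.01, so the sign of the first 2 did not hold. Without P7C3-A20 replicate 3 the second was 0.04 and the third -0.04.

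Of the genes of glutathione synthesis and reduction, 4 of 5 had a log2 fold change above 0 for NAT against DMSO, with a median of 0.17, against 0.03 for all genes. For P7C3-A20 against DMSO it was 2 of 5, with a median of -0.01, against 0.01 for all genes, and none of the 5 passed the test in either. Gclc codes for the catalytic subunit of glutamate-cysteine ligase, the rate-limiting enzyme of glutathione synthesis. It had 57.1, 56.2 and 57.5 TPM in NAT cells, 49.5, 53.8 and 48.8 TPM in P7C3-A20 cells and 50.2, 48.5 and 49.8 TPM in DMSO cells. The NAT libraries lay above all 6 others, and the P7C3-A20 and DMSO libraries overlapped. The log2 fold change of Gclc was 0.20 ± 0.04 for NAT against DMSO (95% interval 0.10 to 0.29, adjusted p = 0.210), 0.03 ± 0.04 for P7C3-A20 against DMSO (adjusted p = 0.747) and 0.17 ± 0.04 for NAT against P7C3-A20 (adjusted p = 0.187). These are bulk RNA values, in which fewer cells of a type and less RNA per cell cannot be told apart.

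Gclm, the modifier subunit of the same ligase and the most abundant of these 5 genes, had 79.2, 77.1 and 80.0 TPM in NAT cells, 69.9, 72.4 and 63.3 TPM in P7C3-A20 cells and 73.5, 67.8 and 66.1 TPM in DMSO cells. Again the NAT libraries were the 3 highest of the 9. Its log2 fold change was 0.19 ± 0.06 for NAT against DMSO (0.07 to 0.31, adjusted p = 0.277), -0.01 ± 0.06 for P7C3-A20 against DMSO (adjusted p = 0.932) and 0.20 ± 0.06 for NAT against P7C3-A20 (adjusted p = 0.189), which was 0.12 with the GC trend removed. The ligase subunits thus had similar differences with NAT, each below the threshold.

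Gsr, glutathione reductase, which regenerates glutathione with NADPH, had 58.2, 54.0 and 61.3 TPM in NAT cells, 55.3, 54.7 and 53.3 TPM in P7C3-A20 cells and 48.6, 52.8 and 52.3 TPM in DMSO cells. Both compound groups lay above DMSO and overlapped with each other. Its log2 fold change was 0.17 ± 0.05 for NAT (adjusted p = 0.288) and 0.09 ± 0.05 for P7C3-A20 (adjusted p = 0.446), each against DMSO. Gss, glutathione synthetase, which adds glycine in the last step, stood on the other side: it averaged 25.8 ± 2.47 TPM in NAT cells, 28.2 ± 0.755 TPM in P7C3-A20 cells and 28.9 ± 1.40 TPM in DMSO cells (SD, n = 3 each), a log2 fold change of -0.16 ± 0.07 for NAT against DMSO (adjusted p = 0.407). Gss shares 163 bases of exon with Acss2 on the other strand in the GENCODE annotation, and the kit is not stated to mark the strand, so its reads may include some of Acss2. Slc7a11, the cystine importer subunit that supplies cysteine, averaged 14.5 ± 1.51 TPM in NAT cells, 13.2 ± 0.156 TPM in P7C3-A20 cells and 13.3 ± 0.775 TPM in DMSO cells, and its groups overlapped in every comparison.

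**Figure D3:**
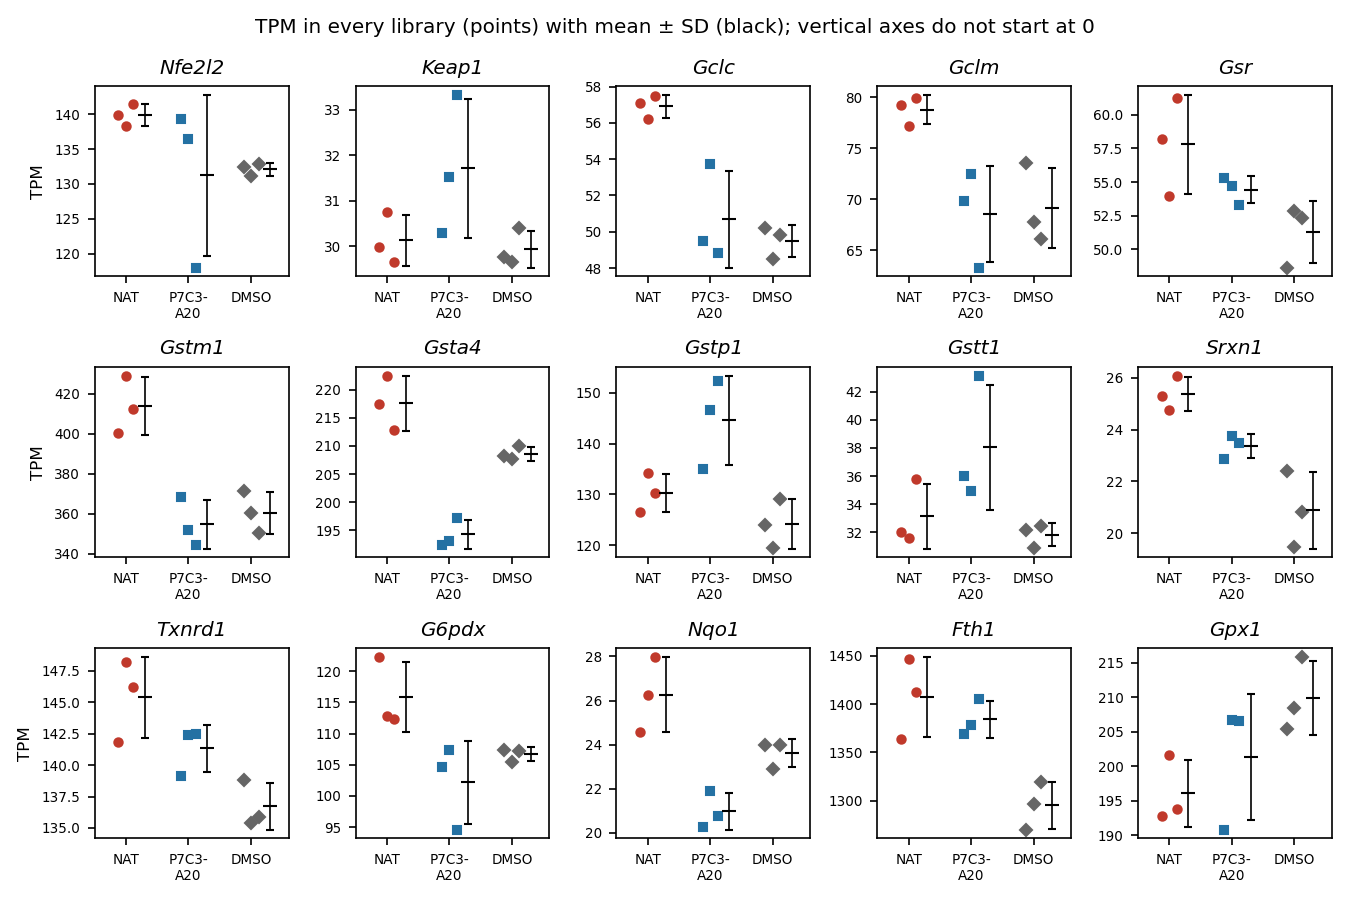
TPM of 15 members in each of the 9 libraries (points) with the group mean and bars of 1 SD (n = 3 each), in NAT, P7C3-A20 and DMSO cells; the vertical axes do not start at 0. The NAT points of Gclc, Gclm and Gstm1 lie above all 6 others, and the P7C3-A20 points of Nqo1 lie below all 6 others.

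Glutathione transferases, which couple glutathione to electrophiles, were not uniform in direction. Gstm1, the most abundant transferase, had 400.4, 429 and 412 TPM in NAT cells, 368, 352 and 344 TPM in P7C3-A20 cells and 371, 360.5 and 350.1 TPM in DMSO cells. Every NAT library exceeded every other library, and the P7C3-A20 and DMSO libraries overlapped. For Gstm1 the log2 fold change was 0.20 ± 0.04 for NAT against DMSO (95% interval 0.11 to 0.28, unadjusted p = 2.971e-04, adjusted p = 0.207), -0.02 ± 0.04 for P7C3-A20 against DMSO (adjusted p = 0.798) and 0.22 ± 0.04 for NAT against P7C3-A20 (0.14 to 0.31, adjusted p = 0.168). Counting error alone would give 0.02. In voom the adjusted p of Gstm1 was 0.0370 for NAT against DMSO and 0.0138 between the compounds, with log2 fold changes of 0.19 and 0.20. The first was 0.0837 to 0.364 without NAT replicate 2 or 3 or any 1 DMSO library, and the second 0.0575 to 0.0835 without any 1 NAT library. The first was lowest, at 0.00227, without P7C3-A20 replicate 3, a library outside that comparison. The second was lowest, at 0.00781, without P7C3-A20 replicate 1. In voom on all libraries with the GC trend removed, the lowest adjusted p of any member was 0.0652 for NAT against DMSO. For NAT against P7C3-A20 it was 0.003, that of Gstm1. Gstm genes are related in sequence, so some reads of Gstm1 could be shared with other members of the family.

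Gsta4, which conjugates the lipid peroxidation product 4-hydroxynonenal, had 217, 223 and 213 TPM in NAT cells, 192, 193 and 197 TPM in P7C3-A20 cells and 208, 208 and 210.0 TPM in DMSO cells. The groups were separate, NAT highest and P7C3-A20 lowest. Its log2 fold change was 0.06 ± 0.03 for NAT against DMSO (adjusted p = 0.447), -0.10 ± 0.03 for P7C3-A20 against DMSO (95% interval -0.17 to -0.04, adjusted p = 0.173) and 0.16 ± 0.03 for NAT against P7C3-A20 (0.10 to 0.23, adjusted p = 0.168).

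Gstp1, the pi-class transferase, had 127, 134 and 130.3 TPM in NAT cells, 135, 147 and 152 TPM in P7C3-A20 cells and 124, 119 and 129 TPM in DMSO cells. The P7C3-A20 libraries were the 3 highest, and the NAT and DMSO libraries overlapped. Its log2 fold change was 0.07 ± 0.05 for NAT against DMSO (adjusted p = 0.595), 0.22 ± 0.05 for P7C3-A20 against DMSO (0.11 to 0.32, unadjusted p = 9.046e-04, adjusted p = 0.140) and -0.15 ± 0.05 for NAT against P7C3-A20 (adjusted p = 0.216). The value for P7C3-A20 against DMSO was 0.14 with the GC trend removed (adjusted p = 0.275). In voom it was 0.23 with an adjusted p of 0.0409, which was 0.0569 to 0.206 without NAT replicate 2 or 3, P7C3-A20 replicate 2 or 3 or DMSO replicate 1 or 2, and at least 0.108 for every member with the GC trend removed.

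Gstt1, the theta-class transferase, had 32.0, 31.6 and 35.8 TPM in NAT cells, 36.0, 34.9 and 43.2 TPM in P7C3-A20 cells and 32.2, 30.9 and 32.4 TPM in DMSO cells. The P7C3-A20 libraries were above the DMSO libraries, replicate 3 by most, and overlapped with NAT. The log2 fold change of Gstt1 was 0.24 ± 0.08 for P7C3-A20 against DMSO (0.08 to 0.41, adjusted p = 0.191), where counting error alone would give 0.09, and 0.05 ± 0.08 for NAT against DMSO (adjusted p = 0.809). Without P7C3-A20 replicate 3 the value for P7C3-A20 against DMSO was 0.15 (adjusted p = 0.360). The other mu-class genes, Gstm5 and Gstm7, and the glutathione conjugate exporter gene Abcc1 had log2 fold changes of -0.05 to 0.10 over the 3 comparisons. Of these, Gstm5 averaged 272 ± 2.04 TPM in NAT cells and 281 ± 6.77 TPM in DMSO cells (SD, n = 3 each) without overlap (log2 fold change -0.04 ± 0.03, adjusted p = 0.625).

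In the thioredoxin and peroxiredoxin group, 4 of 10 members were above 0 for NAT against DMSO and 7 of 10 for P7C3-A20 against DMSO, with medians of -0.02 and 0.005. Srxn1, sulfiredoxin, which reactivates over-oxidised peroxiredoxins, had the highest log2 fold change of any member for NAT against DMSO. It had 25.3, 24.8 and 26.1 TPM in NAT cells, 22.9, 23.8 and 23.5 TPM in P7C3-A20 cells and 22.4, 19.4 and 20.8 TPM in DMSO cells. No group overlapped with another, NAT being highest and DMSO lowest. The Srxn1 log2 fold change was 0.27 ± 0.06 for NAT against DMSO (95% interval 0.14 to 0.40, unadjusted p = 7.108e-04, adjusted p = 0.210), 0.16 ± 0.06 for P7C3-A20 against DMSO (adjusted p = 0.238) and 0.11 ± 0.06 for NAT against P7C3-A20 (adjusted p = 0.363). At 234 to 415 reads a library, counting error alone would give 0.07.

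Txnrd1, cytosolic thioredoxin reductase, had 142, 148 and 146 TPM in NAT cells, 139.1, 142 and 142 TPM in P7C3-A20 cells and 138.8, 135 and 136 TPM in DMSO cells. Both compound groups lay above DMSO, at log2 fold changes of 0.09 ± 0.03 for NAT (adjusted p = 0.337) and 0.05 ± 0.03 for P7C3-A20 (adjusted p = 0.476). Txn1, its substrate and the most abundant gene of the group, had 1349, 1258 and 1325 TPM in NAT cells, 1252, 1232 and 1334 TPM in P7C3-A20 cells and 1303, 1337 and 1179 TPM in DMSO cells, with overlap throughout and log2 fold changes of 0.04 ± 0.05 and 0.00 ± 0.05 against DMSO. The mitochondrial pair Txn2 and Txnrd2 had log2 fold changes of -0.08 to 0.07.

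Among the peroxiredoxins, Prdx1 averaged 493 ± 17.5 TPM in NAT cells, 455 ± 14.3 TPM in P7C3-A20 cells and 481 ± 22.5 TPM in DMSO cells (SD, n = 3 each). The P7C3-A20 libraries were the 3 lowest, at a log2 fold change of -0.08 ± 0.04 against DMSO (adjusted p = 0.390), and NAT was 0.11 ± 0.04 above P7C3-A20 (adjusted p = 0.243). Prdx2 averaged 1159 TPM in NAT cells, 1186 TPM in P7C3-A20 cells and 1182 TPM in DMSO cells. The mitochondrial Prdx3, the endoplasmic reticulum Prdx4 and Prdx5 had log2 fold changes of -0.09 to 0.06, each with overlapping groups. Prdx2 shares exon bases with Junb and Rnaseh2a on the other strand, and Prdx5 with Trmt112. Prdx4 stood at -0.09 ± 0.05 with either compound against DMSO.

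NADPH is the reductant for glutathione and thioredoxin reductases. Of the 4 genes grouped under NADPH supply, only G6pdx and Taldo1 had groups that did not overlap for NAT against DMSO. G6pdx, glucose-6-phosphate dehydrogenase and the entry enzyme of the pentose phosphate pathway, had 122, 113 and 112 TPM in NAT cells, 105, 107 and 94.6 TPM in P7C3-A20 cells and 107, 105 and 107 TPM in DMSO cells. The NAT libraries were the 3 highest and P7C3-A20 replicate 3 the lowest. For G6pdx this was a log2 fold change of 0.12 ± 0.05 for NAT against DMSO (adjusted p = 0.408), -0.06 ± 0.05 for P7C3-A20 against DMSO (adjusted p = 0.560) and 0.18 ± 0.05 for NAT against P7C3-A20 (95% interval 0.07 to 0.29, adjusted p = 0.190). G6pdx shares 278 bases of exon with Ikbkg on the other strand.

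The later enzymes of that pathway did not share the pattern of G6pdx. Pgd, 6-phosphogluconate dehydrogenase, was at -0.04 ± 0.04 for NAT and -0.01 ± 0.04 for P7C3-A20 against DMSO on the log2 scale. Tkt, transketolase and the most abundant of the 4, had 252, 258 and 248 TPM in NAT cells, 255, 254 and 251 TPM in P7C3-A20 cells and 246, 249 and 243 TPM in DMSO cells; the P7C3-A20 libraries were above DMSO by 0.04 ± 0.03 (adjusted p = 0.494). Taldo1, transaldolase, averaged 225 ± 1.92 TPM in NAT cells, 234 ± 7.62 TPM in P7C3-A20 cells and 235 ± 7.94 TPM in DMSO cells (SD, n = 3 each), so NAT was the lowest group at -0.06 ± 0.04 against DMSO (adjusted p = 0.528).

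Nqo1, the quinone reductase that is a classical NRF2 target, was the member with the largest difference between the compounds. It had 24.6, 26.2 and 28.0 TPM in NAT cells, 20.3, 21.9 and 20.8 TPM in P7C3-A20 cells and 24.0, 22.9 and 24.0 TPM in DMSO cells. The 3 groups were separate, NAT above DMSO and P7C3-A20 below it. This gave Nqo1 a log2 fold change of 0.15 ± 0.06 for NAT against DMSO (adjusted p = 0.390), -0.16 ± 0.06 for P7C3-A20 against DMSO (95% interval -0.29 to -0.03, adjusted p = 0.227) and 0.31 ± 0.06 for NAT against P7C3-A20 (0.18 to 0.44, unadjusted p = 2.770e-04, adjusted p = 0.168). Nqo1 had 152 to 211 reads a library, at which counting error alone would give 0.08 to 0.09, above the fitted error.

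Of the 6 tested genes of quinone, haem and iron metabolism, 4 were above 0 for NAT against DMSO and 3 for P7C3-A20 against DMSO. Fth1, ferritin heavy chain, had 1363, 1446 and 1413 TPM in NAT cells, 1369, 1378 and 1405 TPM in P7C3-A20 cells and 1269.7, 1297 and 1319 TPM in DMSO cells. All 6 libraries of the compounds were above the 3 of DMSO, at log2 fold changes of 0.12 ± 0.03 for NAT (95% interval 0.05 to 0.19, adjusted p = 0.256) and 0.10 ± 0.03 for P7C3-A20 (0.02 to 0.17, adjusted p = 0.208), and the compounds differed by 0.02 ± 0.03 (-0.05 to 0.09). Ftl1, the light chain and the most abundant member, had 1691, 1781 and 1746 TPM in NAT cells, 1711, 1754 and 1945 TPM in P7C3-A20 cells and 1775, 1742 and 1775 TPM in DMSO cells, with overlap and log2 fold changes of -0.02 ± 0.05 and 0.03 ± 0.05 against DMSO. Both ferritin genes have many processed copies in the genome, so their counts are uncertain where reads could be shared.

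Hmox1, haem oxygenase, which frees iron from haem and is strongly induced by electrophiles in many cells, averaged 84.9 ± 8.14 TPM in NAT cells, 80.0 ± 4.88 TPM in P7C3-A20 cells and 77.9 ± 5.57 TPM in DMSO cells (SD, n = 3 each). Its groups overlapped, and its log2 fold change was 0.12 ± 0.07 for NAT (95% interval -0.04 to 0.28) and 0.04 ± 0.07 for P7C3-A20 (-0.12 to 0.20) against DMSO. Cbr3, a carbonyl reductase gene, was at 0.03 ± 0.09 and -0.01 ± 0.09 in the same comparisons. Pir was at -0.22 ± 0.20 for NAT and -0.30 ± 0.20 for P7C3-A20 against DMSO, with intervals that span 0 (-0.66 to 0.22 and -0.74 to 0.14) and a counting error of 0.24 to 0.25. Such a difference was not detectable at this depth.

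Of the enzymes that remove peroxides and superoxide, 4 of 6 were below 0 for NAT against DMSO and 4 of 6 for P7C3-A20 against DMSO, and none passed the test. Gpx1, the cytosolic glutathione peroxidase, had 193, 202 and 194 TPM in NAT cells, 191, 207 and 207 TPM in P7C3-A20 cells and 205, 208 and 216 TPM in DMSO cells. The NAT libraries lay below the DMSO libraries, at a log2 fold change of -0.10 ± 0.04 (95% interval -0.18 to -0.01, adjusted p = 0.390), and P7C3-A20 overlapped with both. Gpx8, of the endoplasmic reticulum, was at -0.15 ± 0.08 with either compound against DMSO, with overlap. Gpx4, which reduces lipid peroxides, was at -0.01 ± 0.04 for NAT and 0.03 ± 0.04 for P7C3-A20.

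Sod1, cytosolic superoxide dismutase and the most abundant of these enzymes, had 744, 794 and 776 TPM in NAT cells, 734, 724 and 776 TPM in P7C3-A20 cells and 769.9, 782 and 779.9 TPM in DMSO cells, with overlap. Sod2, its mitochondrial counterpart, averaged 89.0 ± 2.41 TPM in NAT cells, 83.4 ± 2.56 TPM in P7C3-A20 cells and 87.1 ± 0.618 TPM in DMSO cells (SD, n = 3 each), so that P7C3-A20 was the lowest group, at -0.06 ± 0.04 against DMSO (adjusted p = 0.430). Cat, catalase, averaged 223 ± 2.37 TPM in NAT cells, 221 ± 5.93 TPM in P7C3-A20 cells and 215 ± 3.58 TPM in DMSO cells, and was higher in every NAT library than in any DMSO library at 0.05 ± 0.03 (adjusted p = 0.578).

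Other genes of the pathway, which are not among the 41, were read from 3 further lists, and none of their genes was called in any comparison. Of 14 NRF2 partners and repressors, 11 were above 0 for NAT against DMSO and 10 for P7C3-A20 against DMSO, where 63.5% and 55.2% of all genes were. Without overlap, 6 of the 14 were higher with NAT and 4 with P7C3-A20, against 14.1% and 13.1% of all genes. None was lower with NAT and 1, the repressor gene Bach1, was lower with P7C3-A20, against 4.89% and 7.49% of all genes. Those higher with NAT included Nfe2l1, the NRF2 relative that controls proteasome genes, at 142 ± 3.48 TPM in NAT cells, 139 ± 3.72 TPM in P7C3-A20 cells and 130.4 ± 2.62 TPM in DMSO cells (log2 fold change 0.12 ± 0.03 for NAT, adjusted p = 0.269, and 0.09 ± 0.03 for P7C3-A20, adjusted p = 0.236). Cul3, the scaffold of the KEAP1 ubiquitin ligase, was at 0.13 ± 0.04 for NAT (adjusted p = 0.292) and 0.03 ± 0.04 for P7C3-A20, and Mafg, a small MAF partner, at 0.14 ± 0.05 (adjusted p = 0.342) and 0.03 ± 0.05.

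Of 22 other NRF2 targets tested, 14 were above 0 for NAT and 14 for P7C3-A20 against DMSO, a share with NAT near the 63.5% of all genes. Without overlap, 7 were higher and 1 lower with NAT (14.1% and 4.89% of all genes), and 3 higher and 1 lower with P7C3-A20 (13.1% and 7.49%). Me1, malic enzyme, another source of NADPH, averaged 131 ± 6.08 TPM in NAT cells, 118 ± 8.25 TPM in P7C3-A20 cells and 111 ± 3.06 TPM in DMSO cells, at 0.24 ± 0.05 for NAT against DMSO (adjusted p = 0.210) and 0.15 ± 0.05 for NAT against P7C3-A20 (adjusted p = 0.237). Slc6a9, a glycine transporter, was at 0.15 ± 0.05 for NAT (adjusted p = 0.319) and 0.20 ± 0.05 for P7C3-A20 (adjusted p = 0.158), and Sesn2, a stress-induced sestrin, at 0.05 ± 0.05 and 0.16 ± 0.05 (adjusted p = 0.178). Of 29 other glutathione and redox enzymes tested, 17 were above 0 for NAT against DMSO (63.5% of all genes) and 14 for P7C3-A20 against DMSO (55.2%). Without overlap, 5 were higher with NAT and none lower, and 4 were higher and 2 lower with P7C3-A20, beside the same shares of all genes. Slc3a2, the heavy chain that carries Slc7a11 to the membrane, averaged 173 ± 5.36 TPM in NAT cells, 174 ± 2.58 TPM in P7C3-A20 cells and 154 ± 5.30 TPM in DMSO cells, at 0.17 ± 0.04 (adjusted p = 0.210) and 0.18 ± 0.04 (adjusted p = 0.139). Mgst1, a microsomal transferase, was 0.16 ± 0.04 higher with NAT than with P7C3-A20 (adjusted p = 0.174), and Glrx5, a mitochondrial glutaredoxin, was 0.18 ± 0.05 higher with P7C3-A20 than with DMSO (adjusted p = 0.170).

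GC content moved with the P7C3-A20 values. Across the 13712 tested genes with a known GC content, Spearman's rho between GC content and the log2 fold change was 0.007 in the first comparison (NAT against DMSO), 0.479 in the next (P7C3-A20 against DMSO) and -0.470 between NAT and P7C3-A20. Across the 40 members it was -0.073, 0.568 and -0.586 in that order. These are descriptions across genes that share libraries and are not independent replicates. The slope of log2 expression on GC content was taken per 10 percentage points and relative to the mean of the libraries. It was 0.0159, 0.0366 and 0.114 in P7C3-A20 replicates 1, 2 and 3. In the NAT and DMSO libraries it lay between -0.0619 and 0.0072. All 3 P7C3-A20 libraries were thus above every NAT and DMSO library, replicate 3 by most. The 7 members higher with P7C3-A20 than with DMSO without overlap had 49.7% (Txnrd1) to 55.8% GC (Gstp1), and the 4 lower ones 42.2% (Sod2) to 49.2% (Gsta4), against 50.1% for the median member. With the trend removed from each library, the log2 fold changes against DMSO were 0.14 for Gstp1, 0.18 for Gstt1, -0.12 for Gsta4 and -0.16 for Nqo1 with P7C3-A20, and 0.17 for Gstm1, 0.24 for Srxn1, 0.17 for Gclc and 0.16 for Gclm with NAT. For NAT against P7C3-A20 they were 0.25 for Gstm1, 0.15 for Gsta4 and 0.27 for Nqo1. The part of GC content in each single difference was not tested.

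**Figure D4:**
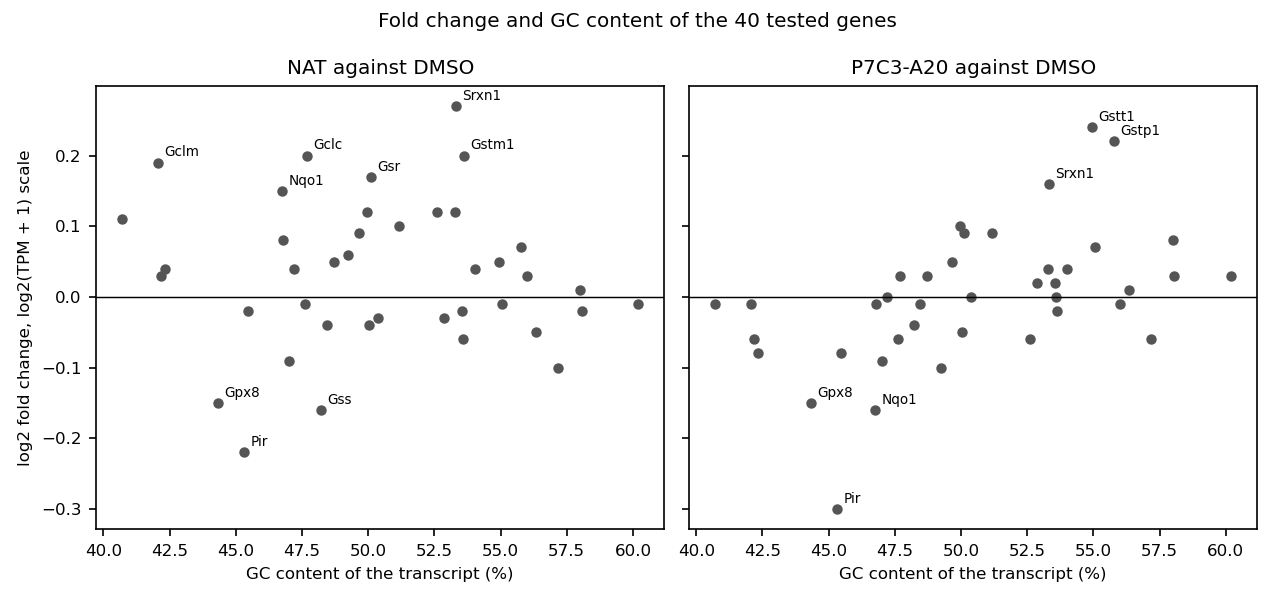
Log2 fold change on the log2(TPM + 1) scale against the GC content of the transcript in percent, 1 point per tested member (40), for NAT against DMSO at the left and P7C3-A20 against DMSO at the right. The points at the right slope upward with GC content (Spearman's rho 0.568), and those at the left do not (-0.073).

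Markers of several cell types moved alongside the NAT values. For NAT against DMSO, 9 of 10 astrocyte markers had a log2 fold change above 0 (63.5% of all genes did), and 5 of the 10, Gfap, Slc1a3, Slc1a2, S100b and Gja1, were higher without overlap (14.1% of all genes). Gfap, the astrocyte intermediate filament, averaged 967 ± 55.3 TPM in NAT cells, 888 ± 69.4 TPM in P7C3-A20 cells and 821 ± 76.4 TPM in DMSO cells (SD, n = 3 each), a log2 fold change of 0.24 ± 0.07 for NAT against DMSO (adjusted p = 0.285). No astrocyte marker passed the test, and their summed levels overlapped between NAT and DMSO. In the same comparison 4 of 8 stem cell markers and 4 of 8 oligodendrocyte lineage markers were lower without overlap (4.89% of all genes), 0 of 7 neuronal markers were above 0, and 5 of 5 dividing-cell markers were above 0, 1 of them without overlap. For NAT against P7C3-A20, 7 of 10 astrocyte markers and 5 of 5 dividing-cell markers were above 0 (54% of all genes), 4 of each without overlap (13.3% of all genes), and 0 of 8 oligodendrocyte lineage markers were, 4 being lower without overlap (8.35%). For P7C3-A20 against DMSO, 5 of 10 astrocyte, 7 of 8 oligodendrocyte lineage and 1 of 5 dividing-cell markers were above 0 (55.2% of all genes). Dividing-cell markers summed to 757 to 806 TPM in NAT cells, 630 to 705 TPM in P7C3-A20 cells and 655 to 789 TPM in DMSO cells. The part of these cell types in the values of the members was not tested.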

How the data were processed

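RNA of 9 libraries, 3 per group, was sequenced; the kit was TruSeq RNA (Illumina), per the labels. The deposited table gives TPM, which the authors scaled to 1000000 per library. Bowtie 0.12.2 and the builds mm8 and mm9 are named without a role, per the submitters' processing notes; the sources used here give no counter or annotation. Files and promoters are thus of different builds, and only promoter coordinates are printed.

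Reads were recovered from the TPM steps for 19302 of 19302 genes with any value (100%, tolerance 0.001), each up to a common divisor. They gave the depth and the counting errors, which cover counting error only. The replicate numbers of the labels did not pair the libraries (correlations of deviations -0.0622 to 0.0673 for equal numbers).

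Groups were compared with limma 3.58.1 (limma-trend, R 4.3.3) on log2(TPM + 1), over 13839 genes with at least 1 TPM in at least 3 libraries. The model had the group as its single term, for 9 libraries and 6 residual degrees of freedom. P-values are two-sided with Benjamini-Hochberg adjustment over all genes, and a gene was called under 0.05. Fold changes on this scale understate low genes. GC content was that of the longest GENCODE transcript (GRCm38), found for 98.4% of names, and its trend was removed with a spline of 5 degrees of freedom. Other steps used Python 3.11.15, numpy 2.4.6, pandas 2.3.3, scipy 1.17.1 and matplotlib 3.10.9. The fits were also run on simulated counts that held no GC trend, so that run cannot show how they behave with the trend of the P7C3-A20 libraries.

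The members and gene lists were chosen with earlier results of these data known. Members are named with all libraries where groups do not overlap and p is lowest (up to 8, 6 and 6 per comparison), with Nfe2l2, Keap1 and the most abundant member of each role. Up to 3 genes of each further list with the lowest p are named.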

Additional observations from a re-analysis of the deposited data

How the results depend on the processing

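No member passed the threshold on TPM values under a pseudocount of 0.1, no filter, quantile normalization, only the 6 compared libraries, the replicate block, the GC trend removed, both together, or any 1 library left out (0 to 0 in each comparison). Voom on recovered reads, chosen after the data were seen, called 1 member in each comparison, beside 36, 468 and 254 of all 13839 genes. With the GC trend removed it called 1 member for NAT against P7C3-A20, beside 61 of 13712 genes. Over 26 results on single members and 18 alternatives, 453 of 468 values kept their direction and side of the threshold, 11 reversed and 4 passed it. Apart from Nfe2l2 and Keap1, the members counted were picked because their groups do not overlap in these data. Leaving out 1 library could not reverse their sign, so the count of kept values is no measure of stability. All reversed values were those of Keap1 and Nfe2l2. The reversed values were small. Keap1 for NAT against DMSO was -0.02 with quantile normalization, with the GC trend removed (also with the block or voom), -0.01 without NAT replicate 2 and -0.0003 in voom. For P7C3-A20 against DMSO, Keap1 was -0.01 with the GC trend removed (also with the block) and -0.02 in voom with it removed, and Nfe2l2 was 0.0024 in voom and ranged over -0.06 to 0.06 with 1 library left out, 0.06 being without P7C3-A20 replicate 3. Except where libraries were left out, the cause was not tested.

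The members' median log2 fold change for NAT against DMSO, 0.0338, was 0.0036 with the GC trend removed, with or without the block, and 0.0038 in voom with it removed. For P7C3-A20 against DMSO, -0.0005 became -0.0234 with the GC trend removed, with or without the block, and -0.02 in voom with it removed. For NAT against P7C3-A20, 0.0185 became -0.0057 in voom. With 1 library left out, the medians ranged over 0.02 to 0.0374, -0.015 to 0.0121 and 0.004 to 0.0311 in that order.

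Counts over all genes moved more. The 4 genes called for NAT against DMSO were 1 with a pseudocount of 0.1, 7 with 6 libraries, 36 in voom (18 higher, 18 lower) and 52 with the GC trend also removed. The 3 for P7C3-A20 against DMSO were 0 with a pseudocount of 0.1, 5 with 6 libraries, 1 with the block and GC trend removed, 468 in voom (396 higher, 72 lower) and 34 with the GC trend also removed (22 higher, 12 lower). The 0 for NAT against P7C3-A20 were 5 with 6 libraries, 254 in voom and 61 with the GC trend also removed. With 1 library left out they ranged over 1 to 11, 1 to 10 and 0 to 2.

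Since the replicate numbers did not pair the libraries, the block is given here alone: with the replicate block 3, 7 and 1 genes were called in that order, and 0 members.

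Depth limits Osgin1 and Pir most, at 1 to 7 and 16 to 32 reads a library.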
